A study of Mus musculus with 6 samples.

Results

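The expression of 10 genes of the FGF-ERK pathway was followed through the RNA-seq libraries of murine embryonic stem cells (ESCs) in which SMC complexes had been reduced. They are the ligand gene Fgf4, the receptor genes Fgfr1 and Fgfr2, the transcription factor genes Etv4, Etv5 and Egr1, and the inhibitor genes Dusp4, Dusp6, Spry2 and Spry4. The genes were chosen by name for their place in the pathway, with earlier results of these data known. Of 21409 genes in the files, 10 are members. Each is represented by the RefSeq transcript with the most counts over the 6 libraries. All 10 passed the filter on low counts.

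The V6.5 line, which comes from a C57BL/6 by 129 cross, was infected with lentiviral shRNAs. Every library, the control included, therefore carries an integrated hairpin and came from cells selected with puromycin, at 0.5 and then 1 µg/ml for 48 h each by the labels. The hairpins targeted GFP, which served as the control (1 library), the cohesin subunit SMC1 (1 library), the condensin II subunit CAPH2 (2 libraries), or SMC2, a subunit shared by condensin I and condensin II (2 libraries). The 2 libraries of a target are different hairpins, R1 and R2, and GFP and SMC1 each have a single library, so the p-values rest on the spread between the hairpins of CAPH2 and of SMC2. The 4 CAPH2 and SMC2 libraries are called the condensin libraries. The cells had been kept on irradiated embryonic fibroblasts and were grown for 1 passage without them.

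Between 25016322 and 30988288 counts per library, summed over RefSeq transcript rows, underlie the values. The targeted genes were checked first. Smc1a, which encodes SMC1, stood at 39.9% of its level in the GFP library (95% interval 37.2 to 42.8) in the SMC1 library. Ncaph2, which encodes CAPH2, stood at 21.0% with CAPH2 R1 and 34.8% with CAPH2 R2. Smc2 stood at 70.7% and 71.9% with SMC2 R1 and R2, but at 152% to 159% of the GFP library in the CAPH2 libraries and 157% in the SMC1 library. Ncaph2 stood at 67.3% of the control (64.5 to 70.2) in the SMC1 library and at 79.6% and 80.9% in the SMC2 libraries, and Smc1a at 116% to 130.2% in the condensin libraries. All 10 ESC marker genes were at an RPKM (reads per kilobase of exon, scaled to sequencing depth) of 1 or more in all 6 libraries. Intervals given with single libraries are 95% exact binomial intervals and cover counting error only.

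FGF4 is secreted by ESCs themselves and acts on FGF receptors at the surface of the same cells. The receptors signal through RAS, RAF and MEK to the kinase ERK, and this signal is known for moving ESCs out of self-renewal and toward differentiation. ERK signaling raises transcription of ETV-family and EGR1 transcription factor genes and of genes for its own inhibitors. Among these inhibitors, DUSP phosphatases remove phosphate from ERK, and Sprouty proteins act between the receptors and RAS or RAF. These statements are background, and neither ERK activity nor protein was measured here.

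The genome sequences beside the members that moved furthest are shown because Fgf4 fell and Dusp6 rose in the SMC1 library by more than the other 8 members did. Fgf4 is a textbook target of the ESC factors OCT4 and SOX2, which bind a composite element downstream of its coding sequence. The letters CTTTGTT and ATGCTAAT, separated by at most 5 bases, were searched on both strands in mm9. An A was also accepted in place of the middle T of ATGCTAAT. The pair occurs once in Fgf4, as CTTTGTT and ATGCTAAT, in exon 3 beyond the end of the coding sequence (chr7:152050296-152050319, plus strand). The letters follow this known element, so the match in Fgf4 was foreseen and is not a test. Windows of 3858 bases, the length of the Fgf4 gene, were taken to end where each gene's transcript ends. These windows hold the pair, with either T or A at that base, in 10 of 21409 genes (0.0467%). In the sequence, the SOX and octamer letters are in capitals.
Fgf4 element: actCTTTGTTtggATGCTAATggg

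The 250 bases before the transcript start of Dusp6 and of Fgf4 are given from the RefSeq promoter table (GRCm38.p6, a later build than the mm9 of the counts). That table held 6 promoters for 5 of the 10 members, namely Fgf4, Fgfr2, Dusp6, Spry2 and Etv5. Capitals mark CGGAA, a core of ETS-family binding sites, or its reverse complement TTCCG. These letters were chosen after the promoters had been read.
Dusp6 (chr10:99262981-99263230, plus strand): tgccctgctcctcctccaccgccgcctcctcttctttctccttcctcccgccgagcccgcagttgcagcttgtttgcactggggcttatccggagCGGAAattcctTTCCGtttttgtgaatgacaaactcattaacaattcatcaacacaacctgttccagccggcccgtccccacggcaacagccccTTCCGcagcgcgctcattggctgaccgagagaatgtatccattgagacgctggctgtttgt
Fgf4 (chr7:144861136-144861385, plus strand): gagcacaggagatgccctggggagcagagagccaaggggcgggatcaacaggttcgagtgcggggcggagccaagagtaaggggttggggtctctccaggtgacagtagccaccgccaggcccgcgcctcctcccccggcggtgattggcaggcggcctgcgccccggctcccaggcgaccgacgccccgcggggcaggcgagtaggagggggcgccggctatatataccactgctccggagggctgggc
The Dusp6 stretch has 3 matches and each of the other 5 member promoters has 0. The shorter GGAA, part of CGGAA, does occur in the Spry2 and Fgfr2 promoters and in an Etv5 promoter. Since the letters were chosen after reading, this contrast among the members is not a test. Among 32851 promoters of the same length, 25.2% have at least 1 match and 2.12% have at least 3. A match describes letters only, since no binding was measured in these libraries.

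Fgf4 was the most highly expressed member in the control and was lower in every knockdown library, although scaling to spike-in RNA turned the SMC2 estimate to 0.12. It spans chr7:152047291-152051148 of mm9, on the plus strand. Its RPKM was 178 in the control, 36.6 with SMC1 knockdown, 106 and 126 in the CAPH2 libraries, and 119.6 and 136 in the SMC2 libraries. The SMC1 library was thus the lowest by far, and the condensin libraries lay together between it and the control. In the SMC1 library Fgf4 stood at 20.5% of the control (19.6 to 21.5), a 4.87-fold lower level resting on 2132 counts against 11628. The edgeR fit over all 6 libraries gave a log2 change of -2.30 (SE 0.139, adjusted p = 4.70e-06).

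With CAPH2 hairpins, Fgf4 averaged an RPKM of 116 ± 14.1 (SD, n = 2), a log2 change of -0.62 in the fit (adjusted p = 0.0203). With SMC2 hairpins it averaged 128 ± 11.7 (SD, n = 2), with a log2 change of -0.47 (adjusted p = 0.0369). All 4 condensin libraries were below the control and all 4 above the SMC1 library. Within the CAPH2 pair, Fgf4 stood at 59.5% of the control (57.8 to 61.2) with R1 and 70.6% (68.6 to 72.8) with R2. The call for CAPH2 was lost without SMC2 R1 (adjusted p = 0.0559), and that for SMC2 was lost without SMC2 R1 (0.182) or without SMC2 R2 (0.0592).

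The receptors had different levels and different responses. FGFR1 is the main FGF receptor of ESCs, and FGFR2 is known from primitive endoderm and other later lineages. Fgfr1 lies at chr8:26629244-26686186 (plus strand) and has 3 transcript rows, and Fgfr2 lies at chr7:137305965-137410322 (minus strand) and has 2. Fgfr1 had an RPKM of 43.0 in the control, 54.3 with SMC1 knockdown, 42.9 and 41.2 with CAPH2 hairpins, and 41.9 and 42.0 with SMC2 hairpins. The SMC1 library was above all others, while the condensin libraries stood at 95.7% to 99.7% of the control.

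Fgfr2 was the member with the lowest RPKM in all 6 libraries. It had 2.70 in the control, 7.66 with SMC1 knockdown, 3.78 and 2.83 with CAPH2 hairpins, and 2.91 and 3.05 with SMC2 hairpins. These values rest on 302 counts in the control and 766 in the SMC1 library, so the ratio of 284% has a wide interval, 248 to 325. In the SMC1 library Fgfr2 rose by a log2 change of 1.49 (SE 0.193, edgeR adjusted p = 0.000236) and Fgfr1 by 0.32 (SE 0.0893, adjusted p = 0.0142). Neither receptor gene passed the test with CAPH2 or SMC2 hairpins, where the log2 estimates were -0.03 for Fgfr1 in both and 0.30 and 0.15 for Fgfr2. CAPH2 R1 was the highest condensin library for Fgfr2, at 140% of the control (121 to 162), and without CAPH2 R2 the gene passed for CAPH2 (log2 0.47, adjusted p = 0.0210).

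**Figure D1:**
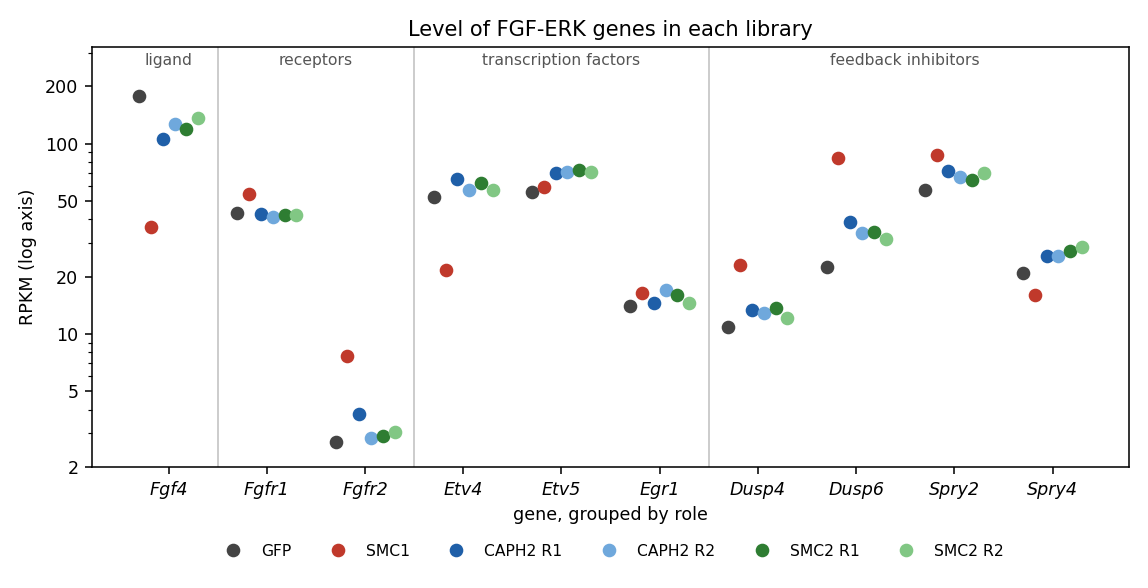
Each point is the RPKM of 1 gene (horizontal axis, grouped by role) in 1 library on a log axis, with colours for the GFP, SMC1, CAPH2 and SMC2 libraries. The SMC1 library sits apart from the other 5 for Fgf4 (36.6 against 106 to 178), Etv4 (21.6 against 52.6 to 65.1), Dusp6 (83.6 against 22.6 to 38.9), Dusp4 and Fgfr2, while the 6 points of Egr1 lie between 14.0 and 17.0.

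The ERK-responsive transcription factor genes did not move together. Etv4 and Etv5 encode closely related PEA3-family ETS factors, and EGR1 is an immediate-early zinc finger factor. Etv4 lies at chr11:101631056-101646624 and Etv5 at chr16:22381386-22439643, both on the minus strand. Etv4 had an RPKM of 52.6 in the control, 21.6 with SMC1 knockdown, 65.1 and 57.2 with CAPH2 hairpins, and 61.9 and 56.7 with SMC2 hairpins. The SMC1 library was the only one below the control, at 41.2% of it (38.2 to 44.3). The log2 change was -1.29 (SE 0.124, edgeR adjusted p = 5.30e-05). The estimates of 0.22 for CAPH2 and 0.18 for SMC2 did not pass (adjusted p = 0.196 and 0.287), although that for CAPH2 did without CAPH2 R2 (log2 0.30).

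Etv5 was likewise above the control in all 4 condensin libraries, but not below it in the SMC1 library. Its RPKM was 55.7 in the control, 58.9 with SMC1 knockdown, 70.3 and 71.1 with CAPH2 hairpins, and 73.0 and 71.1 with SMC2 hairpins. The SMC1 library lay close to the control (106%, 101 to 110), and the 4 condensin libraries stood close together and above both. Etv5 did not pass the test in the SMC1 library (log2 0.07, adjusted p = 0.545) but rose with CAPH2 hairpins (0.35, adjusted p = 0.0315) and with SMC2 hairpins (0.38, adjusted p = 0.0246). The CAPH2 call was lost without SMC2 R1 (adjusted p = 0.0728), and the SMC2 call without SMC2 R1 (0.117) or SMC2 R2 (0.0672).

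Egr1, at chr18:35020861-35024610 on the plus strand, passed no test. Its RPKM was 14.0 in the control, 16.3 with SMC1 knockdown, 14.6 and 17.0 with CAPH2 hairpins, and 16.0 and 14.4 with SMC2 hairpins. The control was the lowest library, and the hairpins of each target lay apart, with the SMC1 library among them. The log2 estimate was 0.21 in the SMC1 library (SE 0.144, adjusted p = 0.263), 0.17 with CAPH2 hairpins (adjusted p = 0.412) and 0.13 with SMC2 hairpins (adjusted p = 0.550).

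Of the 4 inhibitor genes followed, the phosphatase genes Dusp6 and Dusp4 had the largest changes with SMC1 knockdown. DUSP6 removes phosphate from ERK in the cytoplasm, and DUSP4 does so in the nucleus. Dusp6 lies at chr10:98725865-98730122 and Dusp4 at chr8:35870664-35882948, both on the plus strand. Dusp6 had an RPKM of 22.6 in the control, 83.6 with SMC1 knockdown, 38.9 and 33.7 with CAPH2 hairpins, and 34.2 and 31.5 with SMC2 hairpins. Every knockdown library was above the control and the SMC1 library was above all others, at 370% of the control (348 to 394).

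The edgeR log2 change of Dusp6 was 1.88 in the SMC1 library (SE 0.125, adjusted p = 7.52e-06). It was 0.69 with CAPH2 hairpins (SE 0.110, adjusted p = 0.0180) and 0.55 with SMC2 hairpins (SE 0.110, adjusted p = 0.0235). By group mean the order was SMC1, CAPH2, SMC2 and control, from the highest to the lowest. Within the CAPH2 pair, Dusp6 stood at 172% of the control (161 to 184) with R1 and 149% (139 to 160) with R2. The CAPH2 call was lost without SMC2 R1 (adjusted p = 0.0559), and the SMC2 call without SMC2 R1 (0.113) or SMC2 R2 (0.0529).

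Dusp4 had an RPKM of 10.9 in the control, 23.0 with SMC1 knockdown, 13.4 and 12.9 with CAPH2 hairpins, and 13.7 and 12.1 with SMC2 hairpins. The SMC1 library was at 211% of the control (191 to 235), and the condensin libraries lay between 111% and 126%. The log2 change was 1.07 in the SMC1 library (SE 0.136, adjusted p = 0.000224). The estimates of 0.28 for CAPH2 and 0.26 for SMC2 did not pass (adjusted p = 0.169 and 0.209).

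The Sprouty genes moved in opposite directions in the SMC1 library, although scaling to spike-in RNA put Spry4 above the control too (log2 0.48, adjusted p = 0.579). Spry2 lies at chr14:106291164-106296036 and Spry4 at chr18:38745919-38760922, both on the minus strand. Spry2 had an RPKM of 56.7 in the control, 87.0 with SMC1 knockdown, 71.4 and 67.0 with CAPH2 hairpins, and 64.2 and 70.3 with SMC2 hairpins. It was thus lowest in the control and highest in the SMC1 library, at 153.5% of the control (146 to 162). The log2 change in the SMC1 library was 0.61 (SE 0.104, edgeR adjusted p = 0.00119). The estimates of 0.29 for CAPH2 and 0.26 for SMC2 did not pass (adjusted p = 0.0738 and 0.112). Whether they passed depended on the CAPH2 libraries kept, since both did without CAPH2 R2 (log2 0.32 and 0.26).

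Spry4 had an RPKM of 21.0 in the control, 16.1 with SMC1 knockdown, 25.7 and 25.6 with CAPH2 hairpins, and 27.3 and 28.6 with SMC2 hairpins. The SMC1 library was below the control (76.7%, 71.7 to 82.1) and all 4 condensin libraries were above it. The log2 change was -0.39 in the SMC1 library (SE 0.0992, adjusted p = 0.0090) and 0.42 with SMC2 hairpins (SE 0.0855, adjusted p = 0.0244). The estimate of 0.29 with CAPH2 hairpins did not pass (adjusted p = 0.0623), although it did without CAPH2 R2 (0.28, adjusted p = 0.0480). The SMC2 call was lost without SMC2 R1 (adjusted p = 0.0939) or SMC2 R2 (0.0943).

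**Figure D2:**
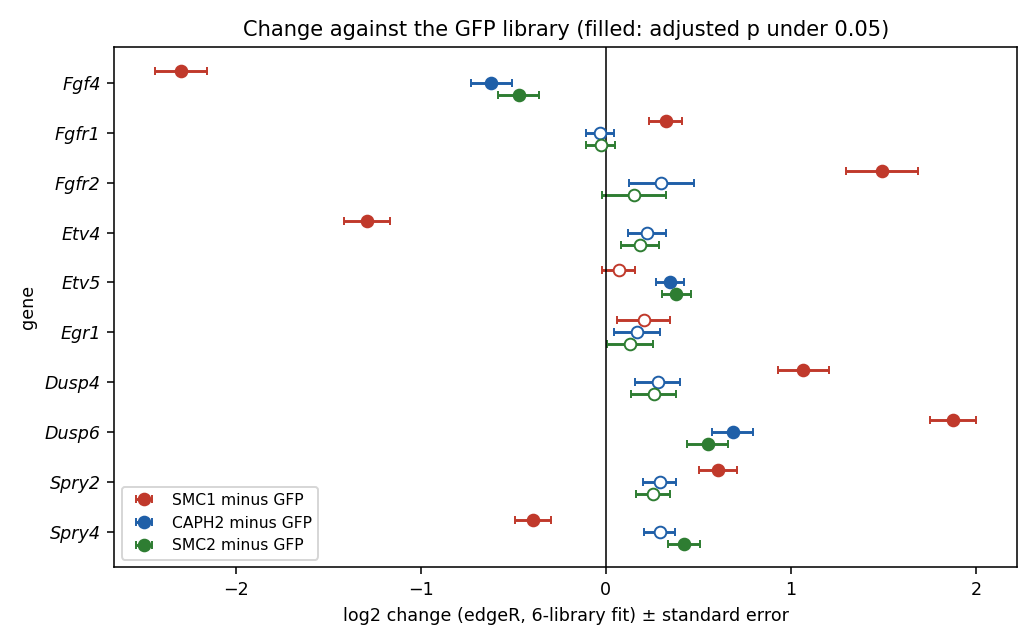
Points give the edgeR log2 change against the GFP library (horizontal axis) for each gene, with bars of 1 standard error, for SMC1 (red), CAPH2 (blue) and SMC2 (green), filled where the adjusted p was under 0.05. Fgf4 and Dusp6 were called in all 3 comparisons, which share the GFP library, and scaling to spike-in RNA instead turned the sign of Spry4 for SMC1, Fgf4 for SMC2 and Fgfr1 for CAPH2 and SMC2.

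Counted over the members, SMC1 knockdown gave 5 called higher (Dusp6, Fgfr2, Dusp4, Spry2, Fgfr1), where 24.8% of the 14843 genes tested were called higher, and 3 called lower (Fgf4, Etv4, Spry4), where 23.1% were called lower. CAPH2 gave 2 higher (Dusp6, Etv5) against 4.74% of all genes, and 1 lower (Fgf4) against 3.44%. SMC2 gave 3 higher (Dusp6, Spry4, Etv5) against 4.14% and 1 lower (Fgf4) against 2.69%. The median log2 change of the 10 members was 0.26, 0.28 and 0.22 in the 3 comparisons, beside 0.0077, 0.0040 and -0.0025 over all genes tested. The 3 comparisons share the single GFP library.

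By the size of the RPKM change alone, 3 members were at least 1 log2 unit higher in the SMC1 library (Dusp6, Fgfr2, Dusp4), where 6.45% of the 12381 genes at an RPKM of 1 or more in the control were, and 2 were at least 1 unit lower (Fgf4, Etv4), where 8.42% were. No member changed by that much with CAPH2 or SMC2 hairpins, where 1.07% and 0.743% of genes did. The median size of the change, whatever its direction, was 0.85 for the members and 0.38 for all these genes in the SMC1 library. It was 0.29 against 0.18 with CAPH2 hairpins and 0.25 against 0.18 with SMC2 hairpins. In all 4 condensin libraries 8 members were above the control, as were 31.9% of all these genes, and 2 members, Fgf4 and Fgfr1, were below it, as were 38.3%.

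A comparison of the SMC1 library with the 4 condensin libraries leaves out the control. It called 5 members higher with SMC1 knockdown (22.9% of all genes were) and 4 lower (20.5%). The genes higher in the SMC1 library were Fgfr2 (log2 1.27, SE 0.139, edgeR adjusted p = 9.29e-05), Dusp6 (1.26, SE 0.0880), Dusp4 (0.80, SE 0.101), Fgfr1 (0.35, SE 0.0690) and Spry2 (0.33, SE 0.0800). Those lower were Fgf4 (-1.75, SE 0.119, adjusted p = 6.42e-06), Etv4 (-1.49, SE 0.107), Spry4 (-0.75, SE 0.0819) and Etv5 (-0.29, SE 0.0714). Egr1 was the exception (log2 0.06, adjusted p = 0.706). The SMC1 library lay outside the range of the condensin libraries for the other 9 members, as it did for 78.5% of the 12381 genes. Under scaling to spike-in RNA 2 of the 9 calls remained, Dusp6 and Fgfr2, and Etv5 changed sign (log2 0.12). The level of Ncaph2 in the SMC1 library, 67.3% of the control (edgeR adjusted p = 0.0685), stands beside this comparison, and its part in it was not tested.

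The condensin groups were compared with each other, which is the only comparison with 2 libraries on each side. No member was called between SMC2 and CAPH2 hairpins in the edgeR test, where 3 of 14843 genes were (0.0202%), 465 genes had an unadjusted p under 0.05 and DESeq2 called 7. The log2 differences of the members, SMC2 minus CAPH2, ran from -0.15 (Fgfr2, SE 0.140) to 0.15 (Fgf4, SE 0.0925), with SEs from 0.0623 to 0.140. Fgf4 was called without CAPH2 R2 (log2 0.29, adjusted p = 0.0406). With 2 libraries on each side, a missed threshold does not show that the groups had the same levels.

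Levels can also be set against each other inside 1 library, where scaling to depth or to spike-ins cancels. The ratio of Etv5 to Etv4 RPKM was 1.06 in the GFP library (1.01 to 1.11), 1.08 to 1.25 in the condensin libraries and 2.72 in the SMC1 library (2.54 to 2.92). The ratio of Spry2 to Spry4 was 2.70 in the control, 2.35 to 2.78 in the condensin libraries and 5.40 in the SMC1 library (5.08 to 5.75). In both pairs the SMC1 library stood apart from the control and the condensin libraries. For Etv5 to Etv4 every condensin library lay between the control and the SMC1 library. For Spry2 to Spry4 the condensin libraries lay on both sides of the control.

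The ratio of Dusp6 to Dusp4 was 2.08 in the control (1.885 to 2.299), 2.50 to 2.90 in the condensin libraries and 3.64 in the SMC1 library (3.41 to 3.90). The ratio of Fgfr1 to Fgfr2 was 15.9 in the control (14.2 to 17.97), 11.35 to 14.55 in the condensin libraries and 7.09 in the SMC1 library (6.57 to 7.65). The ratio of Dusp6 to Fgf4, the members that moved furthest, was 0.127 in the control, 0.231 to 0.366 in the condensin libraries and 2.29 in the SMC1 library, 18.03 times that of the control. For these 3 pairs, as for Etv5 to Etv4, every condensin library lay between the control and the SMC1 library.

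**Figure D3:**
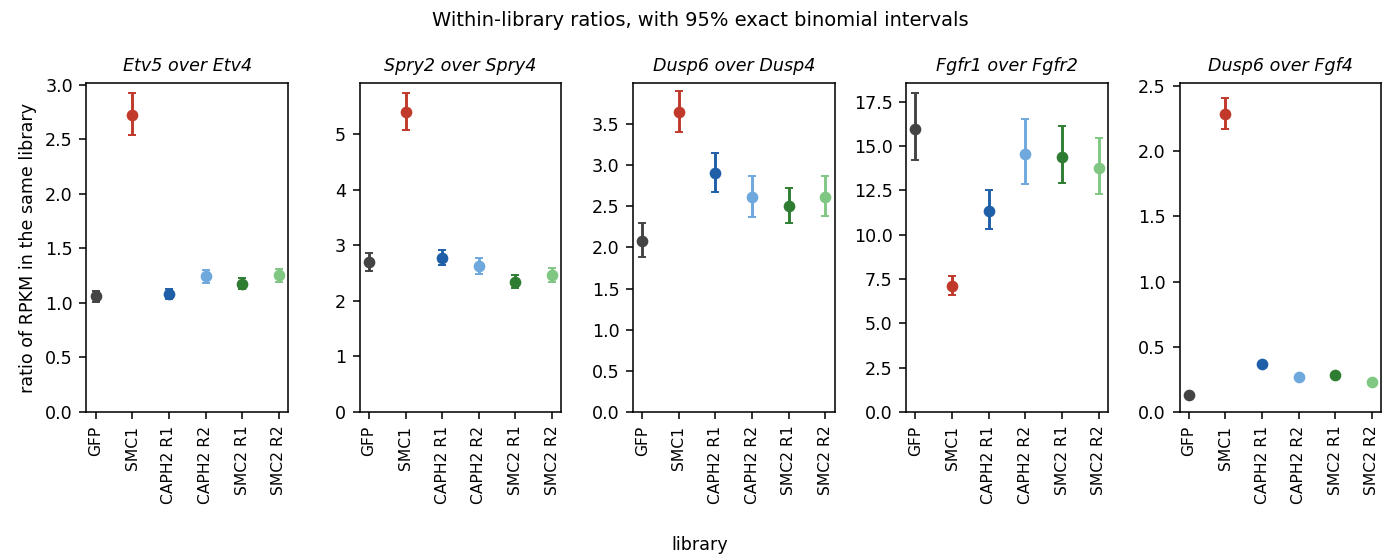
Each panel gives, for the 6 libraries, the ratio of the RPKM of 2 genes in the same library, on an axis from 0, with 95% exact binomial intervals that cover counting error only. The SMC1 library has the highest ratio of Etv5 to Etv4 (2.72), Spry2 to Spry4 (5.40), Dusp6 to Dusp4 (3.64) and Dusp6 to Fgf4 (2.29), and the lowest ratio of Fgfr1 to Fgfr2 (7.09).

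The order of the members by RPKM changed with it. Fgf4 was first and Fgfr2 last in the control and in all 4 condensin libraries. In the SMC1 library Spry2 (87.0) and Dusp6 (83.6) were first and second, and Fgf4 was the fifth. In the condensin libraries the levels of Etv5 (70.3 to 73.0) and Spry2 (64.2 to 71.4) overlapped, and Etv5 was above Spry2 in 3 of the 4. Those of Spry2 and Etv4 (56.7 to 65.1) also overlapped over the libraries, although Spry2 was above Etv4 within each. The other neighbours did not overlap there.

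The rest of the pathway was read from lists of 63 further genes, also drawn up with earlier results of these data known. Of these, 62 were in the files and 61 were tested (Egr3 was below the count filter). SMC1 knockdown gave 24 higher (39.3%, beside 24.8% of all genes tested) and 13 lower (21.3%, beside 23.1%). CAPH2 hairpins gave 5 higher (8.2%, beside 4.74%) and 2 lower (3.28%, beside 3.44%), and SMC2 hairpins 4 higher (6.56%, beside 4.14%) and 1 lower (1.64%, beside 2.69%). In the SMC1 comparison the counts of higher, lower and tested genes were 3, 2 and 8 for ligands, 1, 1 and 4 for receptors, 4, 3 and 11 for adaptors and RAS genes, 2, 3 and 11 for kinases, 6, 3 and 13 for inhibitors, and 8, 1 and 14 for target genes.

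Among the other ligand genes, 3 rose and 2 fell in the SMC1 library. Fgf5, a marker of the epiblast after implantation, went from an RPKM of 2.23 to 5.93 (log2 1.40, SE 0.208, edgeR adjusted p = 0.000534), with 2.31 to 3.40 in the condensin libraries. The ratio of Fgf4 to Fgf5 was 80.0 in the control (66.8 to 96.6), 36.0 to 57.4 in the condensin libraries and 6.17 in the SMC1 library (5.46 to 7.01). Fgf15 rose from 14.7 to 31.3 (log2 1.08). Fgf2 had 3 counts in the control and 33 in the SMC1 library, a 12.3-fold ratio of RPKM with an interval of 3.85 to 62.6, and was called higher (adjusted p = 0.00214).

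Fgf17 fell from an RPKM of 41.1 to 18.7 (log2 -1.15) and Fgf1 from 4.32 to 1.40 (log2 -1.64). Fgf3, Fgf8 and Fgf18 did not pass, with log2 estimates of -0.87, -0.12 and 0.36. None of the 8 other ligand genes passed with CAPH2 or SMC2 hairpins. Of the other receptor genes, Fgfr4 fell (log2 -1.70, 94 counts against 26) and Fgfrl1, which encodes a receptor without a kinase domain, rose (0.87). Fgfr3 (0.07) and Klb (-0.95, at most 13 counts per library) did not pass.

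Inside the cell, the SMC1 library had lower Frs3, an adaptor of FGF receptors (log2 -1.62, SE 0.157), and higher Sos2, a RAS exchange factor (1.02, SE 0.165). Mapk3, which encodes ERK1, had an RPKM of 90.9 in the control, 45.4 in the SMC1 library, 56.4 and 68.9 with CAPH2 hairpins and 64.5 and 64.9 with SMC2 hairpins. It was called lower in all 3 comparisons (log2 -1.01, -0.54 and -0.48, edgeR adjusted p = 0.000286, 0.0274 and 0.0362). Scaling to spike-in RNA left 5 genes in all called for CAPH2 and 0 for SMC2, so every SMC2 call was lost on that scale. The number of CAPH2 and SMC2 calls over all genes also changed widely when a hairpin library was left out. Both limits apply to the CAPH2 and SMC2 calls of further pathway genes and of markers. Rps6ka3, a kinase gene downstream of ERK, rose in the SMC1 library (0.95, SE 0.141).

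Further inhibitor and target genes of the pathway were called in both directions in the SMC1 library. Il17rd, which encodes the receptor inhibitor SEF, went from an RPKM of 13.6 to 48.2 (log2 1.82, SE 0.109), with 16.3 to 18.5 in the condensin libraries. It also passed with SMC2 hairpins (log2 0.37) but not with CAPH2 hairpins (0.34). Spred3, a Sprouty-related gene, went from 4.08 to 13.7 (1.74, SE 0.135). It also passed with CAPH2 hairpins (0.52) but not with SMC2 hairpins (0.46). Etv1, the third PEA3-family gene, went from 4.05 to 11.8 (1.54, SE 0.146) and also passed with CAPH2 hairpins (0.64, adjusted p = 0.0265) and SMC2 hairpins (0.72, adjusted p = 0.0188). Etv1 thus was higher where its relative Etv4 was lower in the SMC1 library. Egr2, at 23 counts in the control and 72 in the SMC1 library, rose by 1.79 (SE 0.464). The called genes that fell, named here after their values were seen, were the phosphatase genes Dusp1 (log2 -0.97, adjusted p = 0.0031) and Dusp9 (-0.88, adjusted p = 0.000791), the Sprouty gene Spry1 (-0.72, adjusted p = 0.0127) and the immediate-early gene Ier3 (-0.98, adjusted p = 0.0341).

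**Figure D4:**
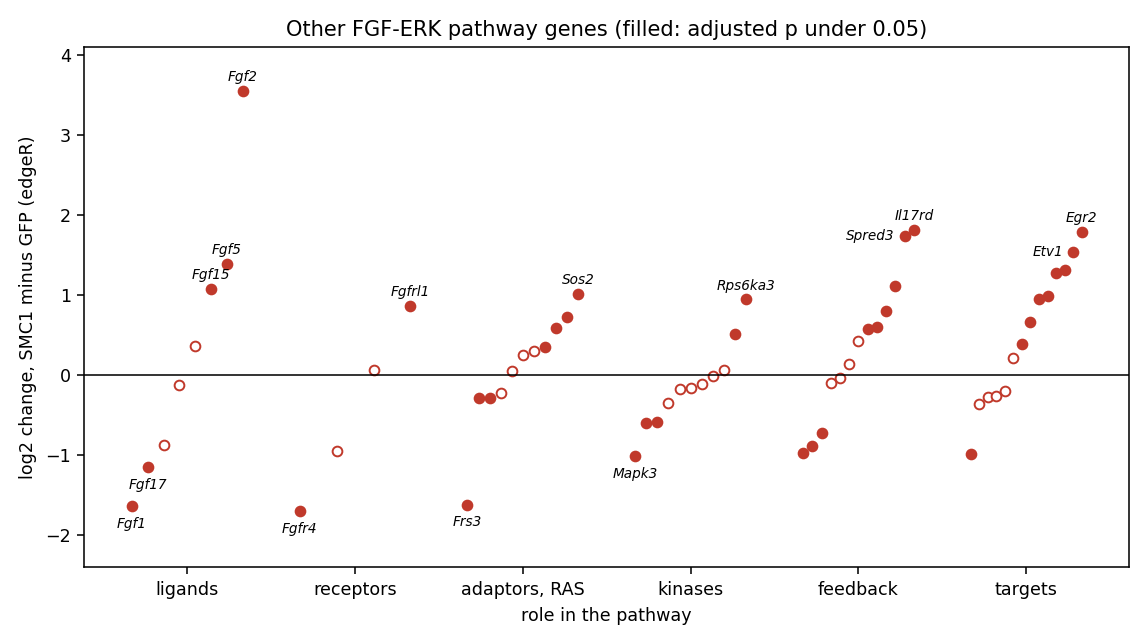
Each point is the edgeR log2 change of 1 further pathway gene in the SMC1 library against the GFP library (vertical axis), sorted within each role (horizontal axis) and filled where the adjusted p was under 0.05. Of the 61 genes plotted, 24 were called higher and 13 lower.

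Cell type markers moved beside these results in the SMC1 library. The marker counts for that library stand beside 24.8% of all genes tested called higher and 23.1% called lower. In these bulk samples fewer cells of a type and less RNA per cell cannot be told apart. Of 10 ESC markers, 9 were called lower and 0 higher, and their summed RPKM was 3862 in the control, 2088 with SMC1 knockdown and 3210 to 3411 in the condensin libraries. Pou5f1 and Sox2, which encode OCT4 and SOX2, went from 1285 to 785 and from 365 to 143. Of 6 epiblast markers, 5 were called higher, with a summed RPKM of 181, 368 and 190.1 to 208. Fgf5, also counted above as a ligand gene, is among the 5.

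Of 8 fibroblast markers tested of 10, 6 were called higher, with a summed RPKM of 139 in the control, 528 in the SMC1 library and 160.2 to 245 in the condensin libraries. Tagln supplied 434 of the SMC1 sum, and the fibroblast markers Lum and Dcn had at most 5 and 19 counts in any library. Lum had 0 counts in both CAPH2 libraries. Of 8 primitive endoderm markers, 3 were called higher and 1 lower, with a summed RPKM of 6.89, 12.3 and 7.50 to 9.21, and Hnf4a had 0 counts in the SMC1 library. Of 6 trophectoderm markers tested of 7, 4 were called higher and 2 lower, with a summed RPKM of 170, 287 and 132 to 177, and Elf5 had 0 counts in 5 of 6 libraries. With CAPH2 hairpins, Col1a2 (log2 0.68), Dab2 (0.75) and Cdx2 (1.52) were called higher and Dppa5a (-0.57) lower. With SMC2 hairpins, Tfap2c (-0.33) was called lower and no other marker was called. The part of other cell types in the changes of the members was not tested.

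The spike-in RNA, added in equal amount per cell number, gives another scale. It made up 1.72% of counts in the control, 0.948% with SMC1 knockdown, 1.11% and 1.77% with CAPH2 hairpins, and 1.11% and 1.16% with SMC2 hairpins. Scaling to it moved the median log2 change of all genes to 0.88 for SMC1, 0.34 for CAPH2 and 0.59 for SMC2. It changed the split of all genes called for SMC1 against GFP from 3674 higher and 3433 lower to 1796 and 108, and for SMC1 against condensin from 3399 and 3045 to 1272 and 148. The median of the 10 members moved to 1.14, 0.62 and 0.81 against GFP, above that of all genes as on the main scale. On the spike-in scale Fgf4 and Etv4 in the SMC1 library were still below the control (log2 -1.42 and -0.41, adjusted p = 0.128 and 0.630), whereas Spry4 was above it (0.48). Dusp6, Fgfr2 and Dusp4 were the 3 members still called in the SMC1 library, and no member was called with CAPH2 or SMC2 hairpins (lowest adjusted p = 0.977 and 0.607 in edgeR). This scaling added 0.63 log2 units to CAPH2 R1 and -0.05 to CAPH2 R2, so it moved the hairpins of that target apart.

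Genes whose levels followed those of a member over the 6 libraries were ranked by Pearson's r of log2 CPM (depth-scaled counts), as a description in which all points share their libraries. For Fgf4 the likest genes were Ankrd35, Timeless and Isoc2a (r of 0.9988 to 0.9997), and 1064 of 12463 genes had an r over 0.95. For Dusp6 they were Gnai1, Mme and a RefSeq row without a symbol (r of 0.9970 to 0.9994), with 730 genes over 0.95. For Spry4 they were Efcab12, Zfp759 and Nr1d2, with 139 genes over 0.95, and for Egr1 they were Megf10, Pbx2 and Mixl1, with 4 genes over 0.95. A profile like that of Fgf4 or Dusp6, in which the SMC1 library stands apart, was thus shared by many genes, while that of Egr1 was not.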

How the data were processed

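RNA was from 6 libraries of V6.5 ESCs with hairpins against GFP, SMC1, CAPH2 or SMC2. The authors aligned reads to mm9 with Bowtie, keeping reads with at most 2 alignments, and counted exonic reads per RefSeq transcript. The deposited counts are raw and count a shared exon for each isoform. The deposited RPKM values are scaled by the authors to the length of the exons and to library depth, not to the ERCC spike-ins, which were added by cell number. Symbols were matched for 25353 of 26073 rows, the other 720 kept their accession, and the row with the most counts stood for each of 21409 genes.

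Counts were tested in edgeR 4.0.16 (TMM, quasi-likelihood, 1 mean for each of 4 groups, all 6 libraries) on 14843 genes that reached 10 counts in 2 or more libraries, with Benjamini-Hochberg adjustment at 0.05. Residual degrees of freedom were 2, all from the hairpin pairs, and a lone library was assumed to vary like these. Each hairpin has a single library, so the p-values measure only the spread between these hairpin libraries. They do not measure the spread between repeated cultures of the same hairpin. The SE of a log2 change was not taken from the fit directly. It is the size of the change divided by the square root of the F statistic of its edgeR test. Changes of RPKM are against GFP, with no pseudocount. In simulated data 200 of 14711 genes, all with ample counts, were changed, and lone libraries were given the fitted spread. For SMC1 against GFP, 77 of 100 genes changed by 1 log2 unit were recovered, and 100 of 100 changed by 2. There, 27 of 204 calls were false, a larger share than the 0.05 of the adjustment. The data themselves gave 7107 calls in this comparison, so these rates do not carry over to them.

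The members and gene lists were chosen with earlier results of these data known. Named besides the members are ligands and receptors with at least 10 counts in a library and, in each other list, the 2 largest called changes for SMC1 against GFP. Alternatives were other scalings, filters, tools and transcript rows, and leaving out each hairpin.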

Additional observations from a re-analysis of the deposited data

How the results depend on the processing

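All called members kept direction and call under DESeq2, other size factors, library totals, no filter and all transcript rows, in each of the 4 comparisons that called any. Scaling to ERCC counts left 3, 0 and 0 members called for SMC1, CAPH2 and SMC2 against GFP (main 8, 3 and 4) and 2 for SMC1 against condensin (main 9), and 1904, 5, 0 and 1420 genes in all (main 7107, 1213, 1015 and 6444). It reversed Spry4 for SMC1 (0.48), Fgfr1 for CAPH2 (0.30), Fgf4 (0.12) and Fgfr1 (0.57) for SMC2, Etv5 for SMC1 against condensin (0.12), and, for SMC2 against CAPH2, Fgfr2 (0.078), Etv4 (0.21), Egr1 (0.25), Dusp4 (0.24), Dusp6 (0.11) and Spry2 (0.22). On that scale 1 and 2 members passed 1 log2 unit of RPKM for CAPH2 and SMC2 (main 0). The cause was not tested. For SMC2 against CAPH2, library totals reversed Fgfr1 (-0.0033).

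Over all genes, CAPH2 against GFP gave 770 calls in DESeq2 and 2094 with no filter, SMC2 against GFP 1779 with no filter, and SMC2 against CAPH2 (main 3) 7 in DESeq2, 6 with no filter and 1 with library totals. Leaving out 1 hairpin library gave 0 to 7 members and 5 to 3546 genes for CAPH2, 0 to 5 members and 1 to 3069 genes for SMC2, and 0 to 1 members and 1 to 344 genes for SMC2 against CAPH2. Members called for SMC1 stayed at 8 against GFP and 9 against condensin. Egr1 for SMC1 against condensin ranged from -0.016 to 0.10. For SMC2 against CAPH2 the ranges were -0.010 to 0.026 for Fgfr1, -0.32 to 0.074 for Fgfr2, -0.11 to 0.054 for Etv4, -0.16 to 0.089 for Egr1, -0.12 to 0.070 for Dusp4, -0.10 to 0.032 for Spry2. With a replicate block, 61 genes and 0 members were called for SMC2 against CAPH2. Hairpins R1 of the 2 targets deviated from their group means with a correlation of 0.12 over genes, but the numbers name different hairpins.

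The single GFP library enters 3 comparisons, so its own deviation would move every change against it. Genes with few counts, such as Fgf2 and Egr2, are imprecise.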
